A study of Mus musculus with 8 samples.

Results

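Semaphorins, ephrins, Slits and netrins are the classic families of guidance cues, and plexins, neuropilins, Eph receptors, Robo receptors and the Unc5 receptors are the proteins that read them. Genes of these families were taken from the deposited table of reads per gene by their symbols, as all genes named Sema, Plxna to Plxnd, Nrp1 or Nrp2, Epha or Ephb, Efna or Efnb, Slit1 to Slit3, Robo1 to Robo4, Ntn with a number, or Unc5a to Unc5d. This gave 68 genes out of 22200, all annotated as protein coding and each on 1 row. One of them, Unc5cl, matches by its letters but encodes a relative of Unc5c that is not known as a netrin receptor. The cells were immortalised mouse embryonic fibroblasts (MEFs) on the C57BL/6 background, labelled TAF4-/- in every library, so by these labels controls and treated cells alike lack TAF4, one of the proteins of the TFIID complex that helps to start transcription. Per the study's methods, the TAF4-null line was made from 1 parental MEF line by Cre recombination of a floxed allele in culture. By treatment, 3 libraries came from untreated cultures labelled 12 h, 3 from cultures exposed to retinoic acid (RA) for 12 h and 2 from cultures exposed to it for 72 h. No untreated library at 72 h was analysed, so the effects of RA and of time in culture cannot be told apart in any comparison with the 72 h libraries. The sample titles carry cl1, which resembles C1, the study's name for its TAF4-expressing parental line, so the titles alone leave doubt that these cells lack TAF4. The study's methods name C3, its TAF4-null line, as the source of the RNA-seq with RA. The genotype labels were followed here. The study's methods give a later time of RA treatment other than 72 h, whereas its results describe RNA-seq at 12 h and 72 h, as the labels do. The design text counts 1 library fewer than the 8 listed, and all 8 were used.

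Guidance cues steer migrating cells and growing axons by attraction or repulsion. Class 3 semaphorins are secreted and mostly act through a neuropilin that binds the cue and a plexin that signals, Sema3e binds Plxnd1 directly, and semaphorins of classes 4 to 7 are tied to the membrane and bind plexins. Ephrins are membrane-bound ligands, with ephrin-A held by a lipid anchor and ephrin-B crossing the membrane, and their Eph receptors are tyrosine kinases. Slits are secreted ligands of Robo receptors. Netrins are laminin-related secreted proteins whose receptors include the Unc5 family and Dcc. RA, the active form of vitamin A, acts through nuclear receptors that bind DNA, and mesenchymal cells such as fibroblasts use the same cues in tissue patterning and vessel growth.

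Values were normalised reads per gene as deposited. Quantile normalisation had given all 8 libraries the same set of values, with a floor of 1 and a sum of 9442019 in each, so the depth of the single libraries is unknown. The test was limma on log2(value + 1), in 1 fit of all 3 groups over the 12673 genes whose average across libraries reached 10. A gene was called when its Benjamini-Hochberg adjusted p was under 0.05 and its change was at least 2-fold. Changes are on this log2 scale, which understates those of low genes. No label says that the libraries came from separate cultures, so p-values measure the spread between these libraries, which may be technical. Cyp26b1, an RA-degrading enzyme that RA induces, was higher by 5.99 ± 0.20 (SE) at 12 h and 6.51 ± 0.23 at 72 h, Rarb by 1.76 ± 0.22 and 2.31 ± 0.24, and Dhrs3 by 3.46 ± 0.16 and 4.60 ± 0.18, with limma adjusted p of at most 0.00021. Taf4a, the gene labelled as deleted, had 984 to 1449 normalised reads in all 8 libraries, and since the deleted exons cannot be seen in values per gene, this checks nothing about the deletion. The fibroblast list was high as a sum, at 173370 to 216703, mostly from Vim and Col1a1 with means of 98800 and 53800. Thy1, Lum and Dcn had means under 10, and 2 of 7 tested markers were called, Pdgfra higher at 12 h and Col3a1 lower at 72 h. Marker sums in untreated, RA 12 h and RA 72 h libraries were 1938 to 2205, 1959 to 2151 and 1861 to 1904 for neurons, 51 to 54, 37 to 52 and 29 to 33 for glia, and 11832 to 14671, 14394 to 15539 and 12632 to 12967 for smooth muscle and pericytes. Syt1 carried the neuron sum with a mean of 1950, and Acta2 that of smooth muscle and pericytes with 13500. In the neuron list Stmn2 was called lower at both times, by -1.38 and -3.12. At 72 h Mbp and Rgs5 were called lower too, by -1.17 and -1.67. The sums of endothelium (43 to 82), epithelium (19 to 36) and leukocytes (40 to 60) held no called marker. The part of other cell types in the results was not tested.

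The libraries also differed within groups. The first principal component of the deviations from the group means held 50.1% of that variance and put untreated libraries 1 and 2, RA 12 h library 3 and RA 72 h library 2 on one side, and untreated library 3, RA 12 h libraries 1 and 2 and RA 72 h library 1 on the other. The sides followed the genomic span of genes, though hardly in untreated library 1. For all tested genes with a known span, a gene's deviation was correlated with its span (Spearman's rho, across genes of 1 library, which are not independent replicates). It was 0.300 in untreated library 3, 0.142 and 0.137 in RA 12 h libraries 1 and 2 and 0.263 in RA 72 h library 1. On the other side it was -0.0691 and -0.277 in untreated libraries 1 and 2, -0.219 in RA 12 h library 3 and -0.263 in RA 72 h library 2. The guidance genes were long. The median span of the 55 tested members was 124 kb (range 4.64 to 952), and 54.5% spanned at least 100 kb, against 18.2% of all tested genes. Among the 30 tested members of at least 100 kb, the median deviation on the log2 scale was 0.17 in untreated library 3, 0.11 in RA 12 h library 1 and 0.13 in RA 72 h library 1, and -0.15, -0.12 and -0.13 in untreated library 2, RA 12 h library 3 and RA 72 h library 2. It was -0.0027 in untreated library 1 and 0.035 in RA 12 h library 2. Called results are therefore given within each side as well. In each such comparison at least 1 group has a single library, so these changes are descriptions without replication. The libraries of a side share no label, so no batch can be named for it.

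Most guidance genes were detected, at modest levels. The filter kept 55 of the 68 (80.9%), against 57.1% of all genes, and their median level was 71.1 normalised reads, against 192 for all tested genes. Means were over 1000 normalised reads for 5 members, from 100 to 1000 for 15, from 10 to 100 for 35 and under 10 for 13, and the top 10 held 75.1% of the reads of all 68. Between genes, levels were compared per kb of annotated exon. In untreated cells Sema3f, a secreted repellent that binds Nrp2, led with 802 normalised reads per kb of exon, followed by its receptor Nrp2 with 233, Sema3e with 228, Slit2 with 172, Unc5b with 167, Epha2 with 141 and Sema3a with 123. Levels differed widely within most families, as the plot of levels by family shows. If reads were tags from 1 site per transcript, as the labels have it, the division by exon length would not apply.

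**Figure D1:**
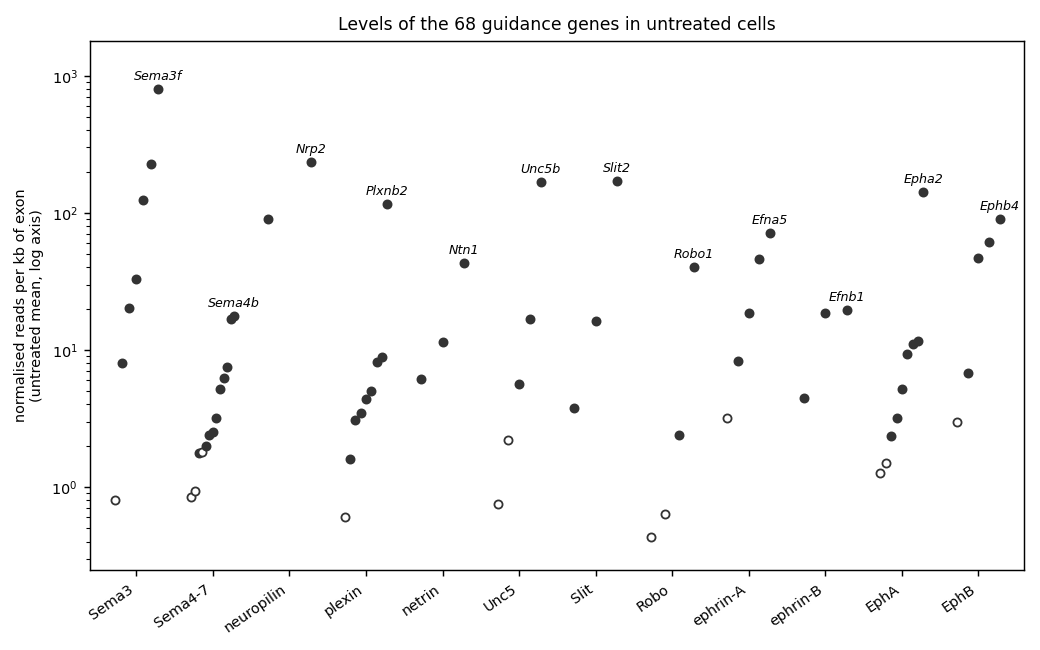
Mean level of each of the 68 guidance genes in the 3 untreated libraries, in normalised reads per kb of exon on a log axis, by family. Filled points were tested and open points had a mean under 10 over the 8 libraries. The highest member of each family is named, and Sema3f stands above all at 802.

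Among the ligands, the membrane-bound semaphorins were led by Sema5a with a mean of 232 normalised reads over the 8 libraries, the ephrin-A genes by Efna5 with 264.5, the ephrin-B genes by Efnb2 with 102, and the netrins by Ntn1 with 631. Among the receptors, Plxnb2 led the plexins with 844, Epha2 the EphA genes with 758, Ephb2 the EphB genes with 745.5, Robo1 the Robo genes with 364 and Unc5b the Unc5 genes with 801. The 13 untested members were Sema3g, Sema4a, Sema4f, Sema6b, Plxnb3, Epha8, Epha10, Ephb6, Efna2, Robo3, Robo4, Unc5a and Unc5cl. Their means ran from 2.36 for Robo4, a receptor known from endothelium, to 9.81 for Unc5a, and no library had more than 13.8 normalised reads of any of them.

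Some low levels were no higher than those in the lower part of long genes for their span. Whether these reads reflect span or low expression was not tested. The 25th percentile of the value per Mb of span among 2365 genes of at least 100 kb was 90.0 to 160 normalised reads per Mb in the 8 libraries. On average over the libraries, 8 tested members did not exceed what this value gives for their span, namely Epha3, Epha4, Epha5, Epha6, Plxna4, Robo2, Sema6d and Unc5d, and Epha6 and Robo2 did not in any library. These 8 are 14.5% of the 55 tested members and 26.7% of the 30 that span at least 100 kb, against 22% of all tested genes of such span. As the value is the 25th percentile of long genes, a share of about that size is built in. Their reads were on average at or under the 25th percentile of long genes for their span, and none of the 8 was called in any of the 3 comparisons. Plotted against span, Slit2, Sema3a, Sema3e, Nrp2 and Ntn1 were far above the line, while Epha3, Epha6 and Robo2 lay under it.

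**Figure D2:**
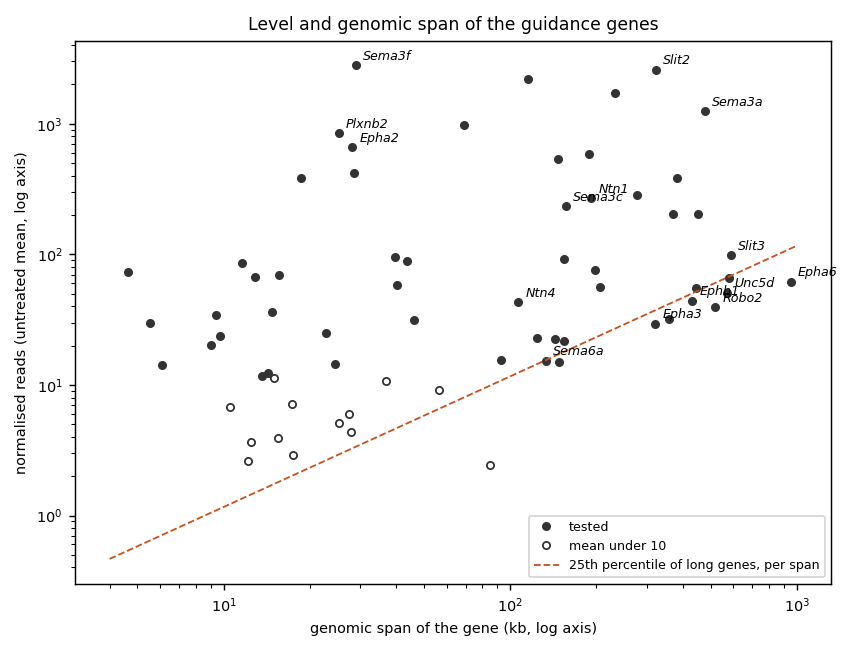
Untreated mean in normalised reads (y, log axis) against genomic span in kb (x, log axis) for the 68 guidance genes. Filled points were tested, open points had a mean under 10, and the dashed line is the 25th percentile of reads per span among long genes in the untreated libraries. Slit2 and Sema3a lie far above the line, and Epha3, Epha6 and Robo2 under it.

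To ask which guidance genes RA changed early, RA 12 h was compared with untreated cells. Sema3c, Ntn1 and Ntn4 were higher, 3 of the 55 tested members (5.45%), and no member was called lower, against 1.42% of all tested genes called, 1.11% higher and 0.308% lower. All 3 encode secreted cues. A further 3 receptors passed the adjusted p with less than 2-fold change, Ephb2 and Nrp1 higher and Unc5b lower, so 6 of 55 (10.9%) passed without the fold minimum, 5 higher and 1 lower, against 4.37% of all tested genes (2.87% higher and 1.5% lower). The libraries of both groups did not overlap in 19 members (34.5%), 10 higher and 9 lower, against 20% of all tested genes (9.42% higher and 10.6% lower).

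Sema3c encodes a class 3 semaphorin known for its part in the outflow tract of the heart. It had 232, 209 and 259 normalised reads in the untreated libraries, 985.5, 915 and 755 at 12 h and 805 and 683 at 72 h. Every RA library was above every untreated one, and the 12 h and 72 h libraries overlapped. The change was 1.91 ± 0.13 (SE, log2, 3.77-fold, limma adjusted p = 1.11e-06) at 12 h and 1.67 ± 0.14 (3.18-fold, limma adjusted p = 7.01e-06) at 72 h. It was 1.77 and 1.87 within the sides at 12 h and 1.63 within both at 72 h. Sema3c (ENSMUSG00000028780) spans chr5:17080099-17236086 on the plus strand of mm9, and 4 class 3 semaphorin genes lie within 4.85 Mb of this chromosome, at chr5:12383166-17236086. The other members there, Sema3d, Sema3a and Sema3e, did not reach 2-fold in any of the 3 comparisons. At 12 h their changes were -0.36 ± 0.18, 0.31 ± 0.10 and 0.38 ± 0.14, with limma adjusted p of at least 0.124.

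Ntn1 encodes netrin-1, the founding axon-guidance netrin. It had 243, 268 and 294 normalised reads in the untreated libraries, 890, 932 and 999.75 at 12 h and 748 and 676 at 72 h. The 3 groups did not overlap, and the 12 h libraries were the highest. The change was 1.81 ± 0.11 (SE, log2, 3.50-fold, limma adjusted p = 5.04e-07) at 12 h, with 1.97 and 1.63 within the sides, and 1.41 ± 0.12 (2.65-fold, limma adjusted p = 6.94e-06) at 72 h, with 1.40 and 1.35. Between 72 h and 12 h it differed by -0.40 ± 0.12 (limma adjusted p = 0.073), which missed the threshold. Ntn1 (ENSMUSG00000020902) spans chr11:68022866-68214325 on the minus strand of mm9.

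Ntn4 encodes netrin-4, a basement membrane netrin that binds laminins. It had 44.4, 41.8 and 43.1 normalised reads in the untreated libraries, 87.4, 110 and 108 at 12 h and 155 and 167 at 72 h. The groups were apart, in the order untreated, 12 h, 72 h. The change was 1.21 ± 0.15 (SE, log2, 2.32-fold, limma adjusted p = 0.00029) at 12 h and 1.88 ± 0.17 (3.67-fold, limma adjusted p = 1.2e-05) at 72 h, and it was 1.31 and 1.16 within the sides at 12 h and 1.93 and 1.82 at 72 h. The step from 12 h to 72 h was 0.66 ± 0.17 (limma adjusted p = 0.0395), and it missed the threshold in 9 of the 18 settings compared, this one included, among them those without any 1 of the 5 RA libraries or without untreated library 1 (adjusted p up to 0.275). Ntn4 (ENSMUSG00000020019) spans chr10:93103426-93209952 on the plus strand of mm9. The third netrin gene, Ntn2l, had the opposite sign, with a mean of 29.8 ± 6.64 (SD, n = 3) normalised reads untreated and 15.8 ± 7.52 (n = 3) at 12 h, and was not called. Ntn2l overlaps Tbc1d24 on the same strand, so reads of the overlap may belong to either gene.

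The promoters of Sema3c and Ntn4 are shown because these genes rose with RA and a promoter entry was given for them. They are taken from RefSeq (GRCm38.p6) as 250 bases before to 50 after the start annotated there. Each matched mm9 exactly at 1 place, Sema3c at chr5:17080384-17080683 and Ntn4 at chr10:93103544-93103843, both on the plus strand. Both windows lie inside the gene spans given above, which begin further upstream, at 17080099 for Sema3c and 93103426 for Ntn4. Sequence before those span starts was not examined. Capitals mark the RA receptor core motif AGGTCA and the GC box GGGCGG on either strand.
Sema3c: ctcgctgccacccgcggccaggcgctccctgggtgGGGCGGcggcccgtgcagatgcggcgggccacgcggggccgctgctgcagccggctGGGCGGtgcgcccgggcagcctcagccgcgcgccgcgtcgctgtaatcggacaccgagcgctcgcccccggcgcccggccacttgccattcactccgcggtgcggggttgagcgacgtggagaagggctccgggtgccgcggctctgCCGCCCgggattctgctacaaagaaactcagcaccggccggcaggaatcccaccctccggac
Ntn4: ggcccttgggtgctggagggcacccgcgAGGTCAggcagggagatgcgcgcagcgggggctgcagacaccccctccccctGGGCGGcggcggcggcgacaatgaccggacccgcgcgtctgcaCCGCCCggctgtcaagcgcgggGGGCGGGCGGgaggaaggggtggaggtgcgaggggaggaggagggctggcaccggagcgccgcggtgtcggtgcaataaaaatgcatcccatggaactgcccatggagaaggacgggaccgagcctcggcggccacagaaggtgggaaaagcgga
Both are rich in GC, with 75.7% and 42 CpG for Sema3c and 72.0% and 31 CpG for Ntn4, against medians of 52.7% and 7 over all 32851 promoters of the table. Sema3c holds the GC box 3 times, the nearest at -12 to -7 from the RefSeq start, and no AGGTCA in this window. Ntn4 holds AGGTCA at -222 to -217 and the GC box 4 times, with the 2 at -105 and -101 overlapping. AGGTCA is found in 16.3% of all promoters and in 10 of 74 promoters of the members (13.5%), and GGGCGG in 35.7% and in 53 of 74 (71.6%). The 74 promoters of the members had medians of 64.2% GC and 19.5 CpG, also above those of all promoters. The part of GC content in the share of GGGCGG was not tested. A direct repeat of the core motif or close variants, spaced by 5, 2 or 1 bases, was in 0 of the 74. Among all promoters it was in 0.0974%, 0.268% and 0.222%, in that order of spacing. Of the 68 members, 58 had an entry, so some of the 74 promoters share a gene. These matches describe letters in the window and say nothing about binding.

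Among the receptors, Ephb2, a kinase for ephrin-B ligands, had 601, 605 and 553 normalised reads untreated and 775, 810 and 802 at 12 h, with 842 and 976.5 at 72 h. Its groups did not overlap, and it rose by 0.44 ± 0.10 (SE, log2, limma adjusted p = 0.0207) at 12 h and 0.63 ± 0.11 (limma adjusted p = 0.00214) at 72 h. Nrp1, the shared receptor of class 3 semaphorins and a VEGF co-receptor, had 501.5, 586 and 522 untreated, 702.5, 743.5 and 689 at 12 h and 753.5 and 873 at 72 h. It rose by 0.41 ± 0.10 (limma adjusted p = 0.0436) at 12 h and by 0.60 ± 0.12 (limma adjusted p = 0.00441) at 72 h. Both rose by less than 2-fold. At 12 h the pass was lost in 6 of 18 settings for Ephb2 (adjusted p up to 0.12) and in 10 for Nrp1 (up to 0.22), for both without any 1 of the RA 12 h libraries or untreated library 1, and for Nrp1 also without either RA 72 h library. At 72 h Nrp1 missed the threshold without RA 72 h library 2 (adjusted p = 0.0773). Unc5b, a netrin receptor, went the other way, with 943, 1108 and 878 untreated and 659, 621.5 and 707 at 12 h. It fell by 0.55 on the log2 scale (SE 0.11, limma adjusted p = 0.00993) at 12 h, a pass lost in 3 of 18 settings, 2 of them without RA 12 h library 1 or 2 (up to 0.0819), while at 72 h, with 703 and 787 reads, the change of -0.38 ± 0.12 missed the threshold (limma adjusted p = 0.067).

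**Figure D3:**
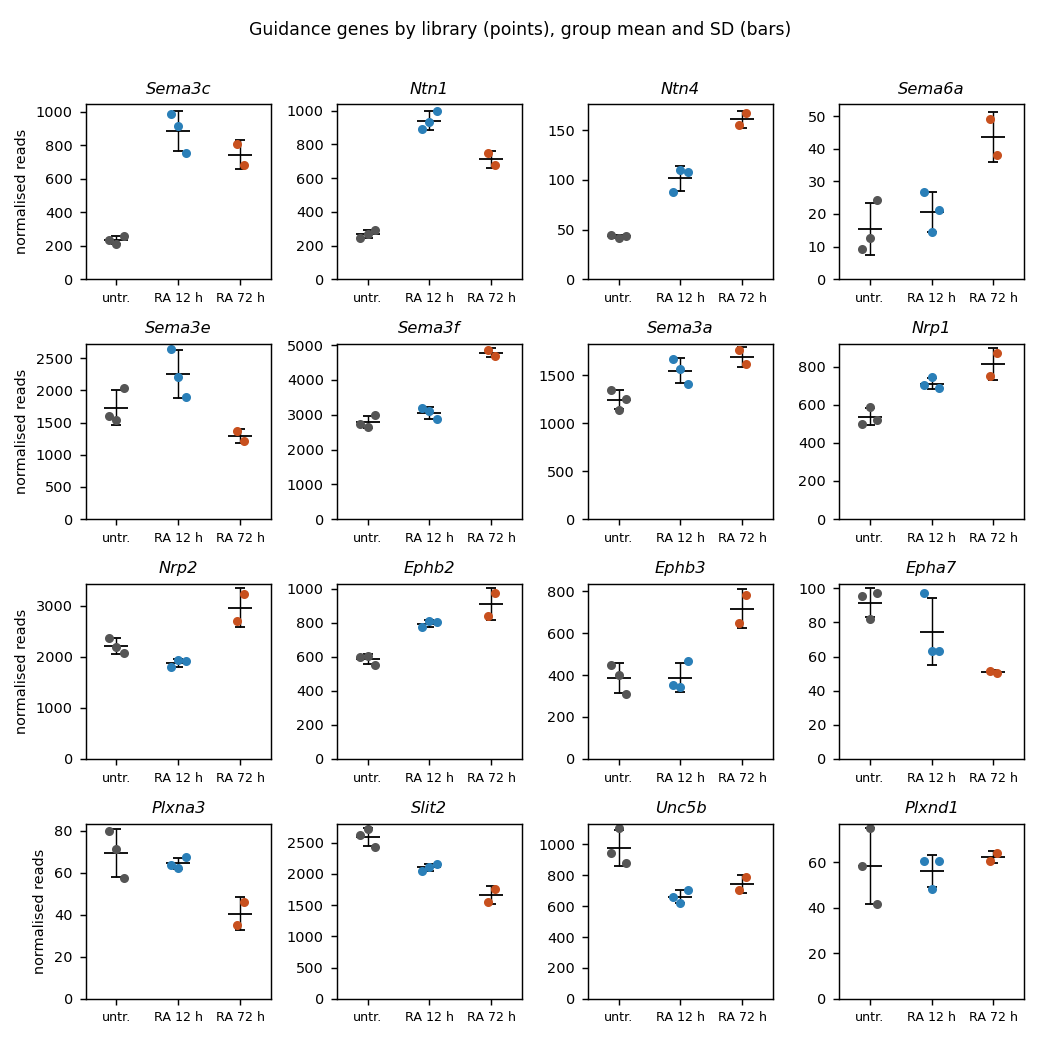
Normalised reads of 16 guidance genes in each library (points), with the group mean (long bar) and SD (error bar), for untreated cells (n = 3), RA 12 h (n = 3) and RA 72 h (n = 2), and each axis starts at 0. Sema3c and Ntn1 are lowest in the untreated libraries, Ntn4 rises from group to group, and Plxnd1 overlaps throughout.

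At 12 h the median of the 55 tested members hardly shifted. Their median change was 0.08, against -0.02 over all tested genes, and it was 0.01 with the library side as a term. Of the members 35 were higher and 20 lower, while 47.5% of all tested genes were higher. The median size of the change, without its sign, was 0.28, against 0.17 over all tested genes. Among the other families, 0 of 8 plexins, 0 of 10 semaphorins of classes 4 to 7, 0 of 7 EphA receptors, 0 of 7 ephrins, 0 of 3 Slits and 0 of 2 Robo receptors passed the adjusted p. At an unadjusted p under 0.05, 17 of the 55 members (30.9%) passed, 11 higher and 6 lower, against 16.3% of all tested genes.

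The question of later changes was addressed with RA 72 h against untreated cells, with the limit that time differs too. Ntn4, Sema3c, Sema6a and Ntn1 were called higher, 4 of 55 (7.27%), and none lower, against 3.67% of all tested genes called, 2.15% higher and 1.52% lower. Without the fold minimum 13 of 55 (23.6%) passed, 10 higher and 3 lower, against 11.5% of all tested genes (6.08% higher and 5.41% lower). At an unadjusted p under 0.05, 22 members (40%) passed, against 23.9% of all tested genes. The groups did not overlap in 25 members (45.5%), 13 higher and 12 lower, against 36.6% of all tested genes (17.2% higher and 19.4% lower). The 12 h and 72 h comparisons share the untreated libraries, so the genes they have in common are not independent of each other. The members' median change was 0.01 (28 higher, 27 lower), against -0.02 over all tested genes, of which 47.1% were higher. The median size was 0.42, against 0.22 over all tested genes.

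Sema6a encodes a transmembrane semaphorin that binds plexin-A receptors. It had 9.13, 12.8 and 24.3 normalised reads untreated, 26.6, 14.4 and 21.3 at 12 h and 49.1 and 38.1 at 72 h. Both 72 h libraries were above all others, while the untreated libraries varied by more than 2-fold among themselves, with the highest in library 3. The change was 1.54 ± 0.39 (SE, log2, 2.91-fold, limma adjusted p = 0.0201), and 1.73 and 0.99 within the sides. This call rested on low values. Averaged over the libraries, the span value of the gene came to 71.5% of its reads. By group it came to 100.8% untreated, 88.9% at 12 h and 43.5% at 72 h. With this value subtracted the change was 3.62 and the limma adjusted p 0.0879. Values below the floor of the subtraction were cut there, which left next to nothing untreated, so the 3.62 is no measure of size. The adjusted p was 0.178 without RA 72 h library 1, 0.0676 without RA 72 h library 2 and 0.0801 without untreated library 1.

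Of the class 3 semaphorins, Sema3f and Sema3a also rose. Sema3f had 2729, 2661 and 2998 normalised reads untreated, 3190, 3113 and 2870 at 12 h and 4877 and 4704 at 72 h. Untreated and 12 h libraries overlapped, and both 72 h libraries stood apart above them. It rose by 0.78 ± 0.10 (SE, log2, 1.72-fold, limma adjusted p = 0.000264) at 72 h, and it changed by 0.13 at 12 h, where it was not called. Sema3b, whose gene lies 72.3 kb from Sema3f on chromosome 9, had a mean of 76.0 normalised reads over the 8 libraries, against 3392 for Sema3f, and a change of -0.45 ± 0.21 at 72 h that missed the threshold. Sema3a, a secreted repellent that acts through Nrp1, had 1342, 1140 and 1256 untreated and 1763 and 1621 at 72 h. It rose by 0.44 ± 0.12 (limma adjusted p = 0.0237), a pass lost in 5 of 18 settings (up to 0.215), as without untreated library 2 or either RA 72 h library.

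Both neuropilins passed the adjusted p higher at 72 h, and Nrp1 also at 12 h, though none of these passes was kept in every setting. Nrp2, the receptor of Sema3f, had 2371, 2202 and 2072 normalised reads untreated, 1793, 1937 and 1911 at 12 h and 2697 and 3236 at 72 h. The 12 h libraries were the lowest and the 72 h libraries the highest, without overlap. It rose by 0.42 ± 0.11 (SE, log2, limma adjusted p = 0.0289) at 72 h, a pass lost in 6 of 18 settings (adjusted p up to 0.277), as without RA 72 h library 2, untreated library 2 or RA 12 h library 2, and had a change of -0.24 ± 0.10 (limma adjusted p = 0.264) at 12 h. Of the 8 tested plexins, which signal for these receptors, Plxna3 alone passed at 72 h, with 79.9, 71.1 and 57.4 normalised reads untreated and 35.1 and 46.0 at 72 h. It fell by 0.76 on the log2 scale (SE 0.21, limma adjusted p = 0.0313), a pass lost in 8 of 18 settings (up to 0.29), as without RA 72 h library 1, untreated library 1 or 2 or RA 12 h library 1 or 2. Plxnb2, the plexin of highest level, had means of 849 ± 91.0 (SD, n = 3), 859 ± 74.9 (n = 3) and 814 ± 69.9 (n = 2) in the 3 groups. Plxnd1, the receptor of Sema3e, had 58.3 ± 16.7 (n = 3), 56.2 ± 7.07 (n = 3) and 62.1 ± 2.65 (n = 2).

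In the Eph families 3 receptors passed the adjusted p at 72 h and no ligand did. Ephb3 had 448.5, 402 and 309 normalised reads untreated, 352, 344 and 466 at 12 h and 650 and 781 at 72 h. The first 2 groups overlapped and the 72 h libraries were above both. It rose by 0.90 ± 0.18 (SE, log2, 1.86-fold, limma adjusted p = 0.0044) at 72 h, just under the fold minimum and with an adjusted p of 0.0634 without RA 72 h library 2, and changed by 0.01 ± 0.16 at 12 h. With Ephb2, this makes 2 of the 4 tested EphB genes higher. Epha7, a receptor of ephrin-A ligands, had 95.8, 82.1 and 97.1 untreated, 97.1, 63.0 and 63.5 at 12 h and 51.8 and 50.5 at 72 h. It fell by 0.83 on the log2 scale (SE 0.21, limma adjusted p = 0.0229), a pass lost in 4 of 18 settings (up to 0.116), as without untreated library 1 or either RA 72 h library. Epha2, the EphA gene of highest level, had 626.5, 754 and 594 untreated, 792, 799 and 904 at 12 h and 796 and 799 at 72 h, and its changes of 0.34 ± 0.11 and 0.28 ± 0.12 missed the threshold (limma adjusted p of 0.12 and 0.184). None of the 7 tested ephrin genes passed in any comparison, with limma adjusted p of at least 0.185. Efna5, the leading ephrin-A gene, had means of 286.5 ± 4.06 (SD, n = 3), 256 ± 6.57 (n = 3) and 245 ± 29.6 (n = 2), and Efnb2, a ligand of Ephb2 and Ephb3, had 89.0 ± 4.75, 110 ± 8.56 and 110 ± 8.4.

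Slit2 was the guidance gene of highest level among those that fell. It had 2619, 2723 and 2428 normalised reads untreated, 2053, 2112 and 2161 at 12 h and 1556 and 1758 at 72 h. The groups did not overlap and went down in that order. It fell by 0.65 on the log2 scale (SE 0.10, limma adjusted p = 0.0012) at 72 h, and within the sides by 0.60 and 0.64, while the change of -0.30 ± 0.09 at 12 h missed the threshold (limma adjusted p = 0.111). Slit1 and Slit3 had changes of 0.06 ± 0.32 and 0.59 ± 0.29 at 72 h and were not called. Robo1, the Robo gene of highest level, had 396, 386 and 369.5 untreated, 316, 336.5 and 338 at 12 h and 392 and 380 at 72 h, with changes of -0.22 ± 0.10 and 0.01 ± 0.11 that missed the threshold.

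**Figure D4:**
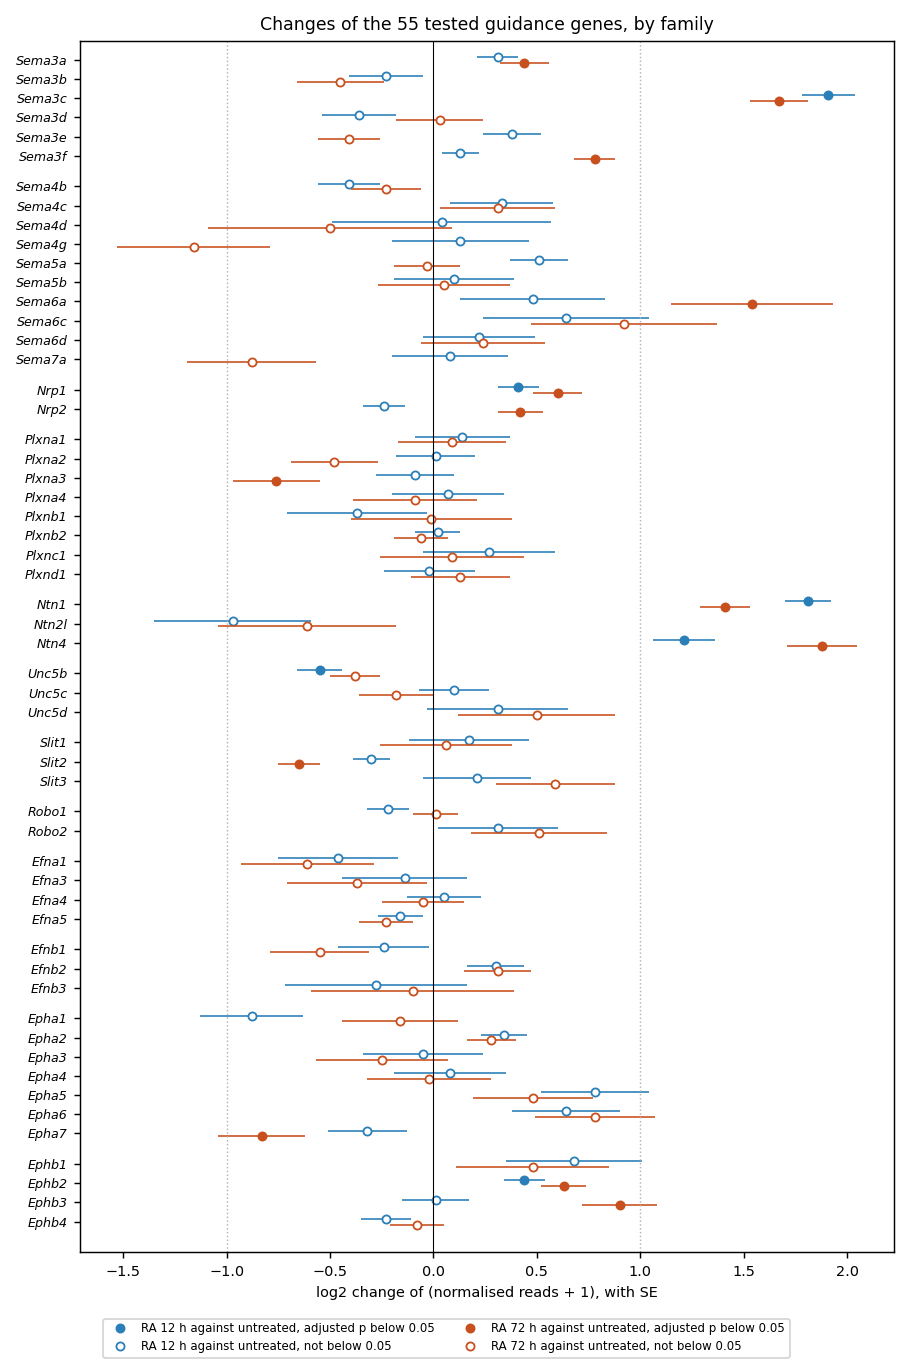
Change in log2(normalised reads + 1) with its SE for the 55 tested guidance genes, RA 12 h (n = 3) and RA 72 h (n = 2) against untreated cells (n = 3), by family. Filled points have an adjusted p under 0.05 and dotted lines mark a 2-fold change. Sema3c, Ntn1 and Ntn4 lie beyond 2-fold at both times and Sema6a at 72 h.

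The comparison of RA 72 h with RA 12 h asked which genes went on changing. None of the 55 tested members was called by limma, against 1.5% of all tested genes (0.765% higher and 0.734% lower), and 15 (27.3%) passed at an unadjusted p under 0.05, against 18.9% of all tested genes. No count test was run, as the values are not counts. Without the fold minimum 5 of 55 (9.09%) passed, against 5.84% of all tested genes (2.92% higher and 2.92% lower). Ephb3, Ntn4, Nrp2 and Sema3f were higher at 72 h and Sema3e was lower. The groups did not overlap in 20 members (36.4%), 11 higher and 9 lower, against 37.3% of all tested genes (18.1% higher and 19.2% lower). The differences were 0.89 ± 0.18 (SE, log2) for Ephb3, 0.66 ± 0.17 for Ntn4, 0.65 ± 0.11 for Nrp2 and 0.65 ± 0.10 for Sema3f, with limma adjusted p of 0.00866, 0.0395, 0.00417 and 0.00249. Sema3f passed in all 18 settings, while Ephb3 missed the threshold in 4 (up to 0.12), as without RA 12 h library 2 or RA 72 h library 2, Nrp2 in 1, without RA 72 h library 2 (0.0882), and Sema3e in 3 (up to 0.103), as without RA 72 h library 2. Sema3e, the Plxnd1 ligand known from vessel patterning, had 1606, 1541 and 2040 normalised reads untreated, 2642, 2209 and 1903 at 12 h and 1372 and 1212 at 72 h. Untreated and 12 h libraries overlapped and the 72 h libraries were the lowest. It fell by 0.79 on the log2 scale (SE 0.15, limma adjusted p = 0.00766) from 12 h to 72 h, and by 0.65 and 0.82 within the sides, while against untreated cells its changes of 0.38 ± 0.14 at 12 h and -0.41 ± 0.15 at 72 h missed the threshold. Among the class 3 semaphorins, the members thus had differing patterns over the groups, with Sema3c high in both RA groups, Sema3f high at 72 h alone and Sema3e lower at 72 h than at 12 h.

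Sema4g and Sema7a were low genes whose 72 h libraries lay under the others. Sema4g had 15.0, 12.5 and 9.38 normalised reads untreated, 11.3, 15.0 and 14 at 12 h and 4.88 in both 72 h libraries, and Sema7a had 20.9, 26.9 and 26.6, then 25.9, 24.9 and 27.9, then 9.13 and 18.1. The changes from 12 h to 72 h, -1.29 ± 0.37 and -0.97 ± 0.31, missed the threshold (limma adjusted p of 0.0616 and 0.0983). Both were called lower with the library side as a term. That term was drawn from the same values and takes up their largest spread within groups, so these calls are no independent support. Against untreated cells Sema4g, at -1.16 ± 0.37 (limma adjusted p = 0.0641), was called lower at 72 h with that term, without a variance trend, with the span value subtracted and without untreated library 3, and Sema7a without RA 72 h library 2. These genes were chosen after their values were seen.

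The order of libraries that the sides give within groups was found in many long members. Untreated library 3 was the highest of its group, RA 12 h library 3 the lowest and RA 72 h library 1 above library 2 in 13 of the 30 tested members of at least 100 kb (43.3%) and in 2 of the 25 shorter ones (8.00%), against 36.5% and 15.4% of all tested genes of those spans. Sema3c and Sema3e were among the long ones, and the shorter 2 were Sema3f and Plxna1. With the span value subtracted, the members' median change was 0 at 12 h and -0.12 at 72 h, and Sema3c, Ntn1 and Ntn4 were called as before. The part of span in the smaller changes was not tested gene by gene.

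The wider pathway was read from 60 further genes of receptors and effectors of these cues, of which 57 were tested. At 12 h 1 of 57 was called (1.75%, against 1.42% of all tested genes), Ngef, the exchange factor ephexin that acts behind EphA receptors, which had a mean of 59.3 ± 9.71 (SD, n = 3) normalised reads untreated, 25.9 ± 2.60 (n = 3) at 12 h and 13.9 ± 5.48 (n = 2) at 72 h. It fell by 1.16 on the log2 scale (SE 0.25, limma adjusted p = 0.0171) at 12 h and fell by 2.06 (SE 0.28, limma adjusted p = 0.000307) at 72 h. At 72 h 5 of 57 were called (8.77%, against 3.67% of all tested genes). L1cam, an adhesion protein that partners Nrp1, rose by 1.15 ± 0.13 (limma adjusted p = 5.26e-05), from 263 ± 18.0 (n = 3) to 584 ± 3.54 (n = 2) normalised reads, and Chn1, an Eph effector that inactivates Rac, rose by 1.04 ± 0.29 (limma adjusted p = 0.0315). Flrt2, an Unc5 ligand, fell by 1.29 (SE 0.16, limma adjusted p = 0.000135), and Mical2, of a family of redox enzymes downstream of plexins, fell by 1.01 (SE 0.16, limma adjusted p = 0.0012). From 12 h to 72 h L1cam was the 1 gene of 57 called (1.75%, against 1.5% of all tested genes), at 1.09 ± 0.13 (limma adjusted p = 0.00023). Without the fold minimum, 1 of the 57 passed higher and 3 lower at 12 h, against 2.87% and 1.5% of all tested genes. At 72 h 4 passed higher and 7 lower, against 6.08% and 5.41%. Rnd3 had the lowest adjusted p of the list at 12 h, with changes under 2-fold of -0.76 ± 0.11 at 12 h and -0.91 ± 0.13 at 72 h (limma adjusted p of 0.00126 and 0.000402). Dcc and Neo1, netrin receptors outside the Unc5 family, had means of 834 and 694 normalised reads untreated, with 12 h changes of 0.32 and 0.07 that missed the threshold (limma adjusted p of 0.147 and 0.748).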

How the data were processed

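RNA of 8 libraries of TAF4-null MEFs was profiled, and the authors deposited 1 table of normalised reads per gene for 22200 genes. Per the labels, reads were 18-base tags next to DpnII sites, whereas the study's methods describe longer reads, Tophat, Cufflinks and normalisation with DESeq. Both use mm9. The deposited values are not whole reads: all libraries have identical sorted values, the mark of quantile normalisation, so a shift of the whole transcriptome or of depth cannot be seen and no counting interval is given. Strandedness of the counting is not given in the sources used here. 1 line without a gene name was left out, and the authors' group means in the table were not used.

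Values were tested as log2(value + 1) with limma 3.58.1 (R 4.3.3, eBayes with trend) for the 12673 genes whose average across libraries reached 10, two-sided, with Benjamini-Hochberg adjustment over all of them. The study's methods use 2-fold and p of 0.05, and the same limits were used on the adjusted p. The script was tested on simulated data. Members and gene lists were chosen with earlier results of these data known. Members called in any comparison are given in full, those past the adjusted p with values, and the highest of each family and the untested ones by level. Replicate numbers were not shown to pair the libraries. Between untreated and RA 12 h libraries, correlations of same-numbered deviations from the group means were -0.105, -0.194 and -0.474. These deviations carry the library sides, so they cannot decide whether the libraries were paired. Gene spans and exon lengths were taken from the GENCODE annotation of mm9, where all 68 members were found. Alternatives were the pseudocount, the filter, the fold minimum, a replicate block, a library side term, no variance trend, a span background and leaving out each library.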

Additional observations from a re-analysis of the deposited data

Results flagged for a closer look

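For 5 members the effect of RA against untreated cells differed between 72 h and 12 h by a test of the difference itself, the limma contrast of both RA groups with an adjusted p under 0.05. The log2 difference, 72 h minus 12 h, was -0.79 for Sema3e, 0.65 for Sema3f, 0.89 for Ephb3, 0.66 for Ntn4 and 0.65 for Nrp2. In 18 settings Sema3f alone passed throughout, and the pass was lost in 9 for Ntn4, 4 for Ephb3, 3 for Sema3e and 1 for Nrp2. Both effects use the same untreated libraries, and RA and time in culture cannot be told apart in them. Nrp2 and Sema3e changed sign between the times, with -0.24 and 0.42 for Nrp2 and 0.38 and -0.41 for Sema3e, although of these 4 changes the one of Nrp2 at 72 h alone passed the adjusted p. With 3, 3 and 2 libraries the groups were too small to look for single libraries that stand apart.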

How the results depend on the processing

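Counts of called members were 3, 4 and 0 (RA 12 h and RA 72 h against untreated, RA 72 h against RA 12 h). Without a fold minimum they were 6, 13 and 5, and with a 3-fold minimum 2 at 72 h. For RA 72 h against RA 12 h, the count was 3 with the library side as a term (Sema4g, Sema6a and Sema7a), 1 without a variance trend and 1 with the span background subtracted (Sema4g in both). For RA 72 h against untreated the same settings gave 6, with Sema4g lower and Sema6c higher, 5, with Sema4g lower, and 5, with Epha7 and Sema4g lower and Sema6a lost, so the absence of lower calls at 72 h did not hold under these. The side term was drawn from these same values, so the calls it adds are no independent support. Leaving out 1 library gave 3 to 5, 4 to 6 and 0 to 2. Without RA 72 h library 2, Sema7a was called lower at 72 h. Without untreated library 3, Epha1 (lower) and Ephb1 (higher) were added at 12 h, Epha6 and Sema4g at 72 h, and Sema4g and Sema6a from 12 h to 72 h, where Ephb3 was called without RA 12 h library 3 or RA 72 h library 1. The causes were not tested. With the replicate number as a block the counts were 3, 4 and 0 and no 2-fold call changed, while the passes of Ephb2 and Nrp1 at 12 h, of Sema3a, Nrp2 and Plxna3 at 72 h and of Ntn4 from 12 h to 72 h were lost, but the numbers are not shown to pair the libraries. No direction reversed. Over the 18 settings Sema3c, Ntn1 and Ntn4 ranged from 1.82 to 2.02, 1.74 to 1.89 and 1.07 to 1.47 at 12 h, and Sema3f and Slit2 at 72 h from 0.74 to 0.83 and from -0.73 to -0.56, always with an adjusted p under 0.05. Sema6a at 72 h ranged from 1.12 to 3.62 and missed it without a filter (0.0622) and in the 4 settings given beside it. The 3.62 came from the span subtraction, which left next to nothing in untreated cells. Ephb2 at 72 h and Sema3f from 12 h to 72 h also passed throughout. Every other pass under 2-fold was lost in 1 to 10 of the 18 settings, as given beside each value. With 2 libraries at 72 h, absence of a call there is not absence of change.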

Other observations

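Among the guidance genes that overlap another gene, Epha1 lies opposite Zyx, which had a mean of 5779 normalised reads against 28.8 for Epha1. Epha1 had 39.5, 39.3 and 29.4 normalised reads untreated, 23.6, 14.4 and 19.9 at 12 h and 30.5 and 33.5 at 72 h. Its 12 h libraries were below all others, and the change of -0.88 ± 0.25 (SE, log2) at 12 h missed the threshold (limma adjusted p = 0.0705). Reads of Zyx could count for Epha1 if strand was not used, which was not tested. Slit3, with changes of 0.21 ± 0.26 and 0.59 ± 0.29, overlaps Gm12123 on the other strand, at 89.3 normalised reads. Robo3 and Robo4 lie 1.65 kb apart on chromosome 9 and both had means under 10.

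Sema5a, the membrane-bound semaphorin of highest level, had 209.5, 170 and 226 normalised reads untreated, 313, 277 and 267 at 12 h and 218 and 177.5 at 72 h. The 12 h libraries were above all others, and the changes of 0.51 ± 0.14 at 12 h and -0.53 ± 0.16 from 12 h to 72 h missed the threshold (limma adjusted p of 0.0666 and 0.0687).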
